A study of Mus musculus with 16 samples.

Results

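The 10 genes Fos, Fosb, Jun, Junb, Egr1, Atf3, Ier2, Ier3, Myc and Cebpb are immediate early and stress transcription factors and their close companions. They were followed in injured and uninjured mouse hindlimb muscle through every probe on the array that carries one of their symbols, which gave 11 probes of 25697. Of these, 9 probes for 9 genes were above background (detection p under 0.05) on at least 3 of 15 arrays and entered the tests, among 14763 probes in all. The probes left out were the single probe of Ier2 and 1 of the 2 probes of Myc.

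Whole hamstring muscle of female mice was taken 2 days after surgery and profiled on 16 Illumina expression BeadChips, 4 per group. SCI+CDTX mice had spinal cord injury (SCI) at the level between vertebrae T12 and T13 together with cardiotoxin (CDTX), a venom toxin that lyses muscle fibres, injected into the muscle, and SCI+Saline mice had the same cord injury with saline injected in place of the toxin. Sham+CDTX mice had sham surgery with CDTX, and Sham+Saline mice sham surgery with saline, so all groups share an operation and a needle injection, and none is an untouched muscle. The labels state that heterotopic bone (NHO) forms in SCI+CDTX muscle alone, and that the authors left array SCI+CDTX 2 out of their final analysis, as was done here. Neither strain nor age is named, and nothing states that the arrays of a group are separate mice, so a p-value measures the spread between these samples, which may be partly technical.

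Immediate early genes are switched on within minutes of a stimulus from factors already present in the cell, and their RNA is short-lived. FOS family proteins pair with JUN family proteins to form the AP-1 factor, while EGR1 is a zinc finger factor driven by serum response factor and growth signals. ATF3 and CEBPB are leucine zipper factors of stress and inflammation, IER3 modulates survival signalling, and MYC drives growth and ribosome production. In muscle these genes respond to contraction, stretch, denervation and injury, and infiltrating leukocytes express them too.

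The arrays lay on 2 slides, and the slide holding the 8 SCI arrays held no sham array, so SCI and slide cannot be told apart. Both CDTX comparisons lie within a slide. On both slides, though, the array labels end in A to D for CDTX and in E to H for saline. CDTX and position on the slide therefore cannot be told apart either. Arrays had 11114 to 13694 probes detected, each probe averaged over 33.3 to 38.9 beads, and the number of arrays limits the precision. Mean raw intensity was 230 to 277 on Sham+Saline arrays and 320 to 373 on the others. Muscle identity held throughout: all 10 fibre genes (Acta1, Ckm, Mb and others) were detected, with summed linear levels of 127000 to 154000. The 8 macrophage genes measured (Cd68, Lyz2, Adgre1 and others) summed to 11900 to 17400 in SCI+CDTX and 15600 to 17800 in Sham+CDTX. With saline they summed to 717 to 3720 (SCI) and 946 to 1810 (sham). Neutrophil genes (S100a8, S100a9 and others) summed to 11600 on Sham+Saline 4 and to 13100 on SCI+Saline 4, against 83.9 at the lowest Sham+Saline array. Of the 6 muscle precursor genes listed, 3 entered the tests. Pax7 and Myf5 did not, and Myf6 was the brightest of those kept on every array. The muscle precursor values below are therefore not read as a measure of precursor cells. In bulk muscle, fewer cells of a type and less RNA per cell cannot be told apart.

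The RefSeq promoter windows (GRCm38.p6, 250 bases before to 50 bases after the start) matched 7 of the 10 genes: Fos, Fosb, Jun, Junb, Atf3, Ier3 and Cebpb. Egr1, Ier2 and Myc were not matched. The windows of 5 members with different behaviour across the groups are shown, so that the elements each carries can be set beside its levels. Capitals mark TGACG (the core of the cAMP response element), TATAAA (the letters of a TATA box) and CCAAT (those of a CAAT box) on either strand, so a match on the opposite strand reads CGTCA or ATTGG. Fos lies at chr12:85473640-85473939 (plus strand), Junb at chr8:84978699-84978998 (minus strand), Atf3 at chr1:191183284-191183583 (minus strand), Ier3 at chr17:35821463-35821762 (plus strand) and Cebpb at chr2:167688665-167688964 (plus strand).
Fos: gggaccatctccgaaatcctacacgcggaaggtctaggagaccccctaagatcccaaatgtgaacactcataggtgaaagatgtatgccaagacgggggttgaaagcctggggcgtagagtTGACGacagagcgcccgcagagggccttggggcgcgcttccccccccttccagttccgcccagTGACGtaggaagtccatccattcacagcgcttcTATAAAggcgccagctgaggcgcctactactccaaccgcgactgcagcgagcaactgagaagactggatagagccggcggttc
Junb: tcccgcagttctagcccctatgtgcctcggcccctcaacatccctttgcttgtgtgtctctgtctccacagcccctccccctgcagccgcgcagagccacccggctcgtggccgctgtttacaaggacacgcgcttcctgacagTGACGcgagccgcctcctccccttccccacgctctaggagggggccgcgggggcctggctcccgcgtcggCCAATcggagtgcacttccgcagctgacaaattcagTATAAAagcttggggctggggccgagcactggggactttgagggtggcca
Atf3: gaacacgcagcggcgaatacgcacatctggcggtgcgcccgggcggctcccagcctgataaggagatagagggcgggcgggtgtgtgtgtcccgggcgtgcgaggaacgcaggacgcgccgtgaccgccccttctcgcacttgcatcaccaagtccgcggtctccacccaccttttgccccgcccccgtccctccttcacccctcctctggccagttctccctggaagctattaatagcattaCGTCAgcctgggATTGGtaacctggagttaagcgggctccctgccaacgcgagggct
Ier3: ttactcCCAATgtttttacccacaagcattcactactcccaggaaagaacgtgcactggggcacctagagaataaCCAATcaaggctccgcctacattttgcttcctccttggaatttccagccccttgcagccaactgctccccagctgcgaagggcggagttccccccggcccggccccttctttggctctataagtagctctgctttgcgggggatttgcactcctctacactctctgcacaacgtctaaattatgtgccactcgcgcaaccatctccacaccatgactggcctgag
Cebpb: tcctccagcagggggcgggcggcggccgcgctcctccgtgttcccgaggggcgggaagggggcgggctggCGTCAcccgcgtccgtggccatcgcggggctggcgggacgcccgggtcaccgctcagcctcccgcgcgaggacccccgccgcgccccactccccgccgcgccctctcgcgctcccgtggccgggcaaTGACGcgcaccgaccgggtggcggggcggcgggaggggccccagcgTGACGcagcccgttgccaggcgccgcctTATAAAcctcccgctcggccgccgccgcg

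TGACG was present in 5 of the 7 member windows (Fos, Fosb, Junb, Atf3 and Cebpb), against 20.8% of 32851 RefSeq windows of the same length. Counting the start as position 1, it lay at -129 and -66 in Fos, at -106 in Junb and at -180, -53 and -7 in Cebpb. TATAAA was in 3 of the 7 (Fos, Junb and Cebpb) against 13.6% of all windows, and began at -33 in Fos, at 1 in Junb and at 22 in Cebpb, so that in Junb and Cebpb it lay at or after the annotated start. CCAAT was in 4 of the 7 (Jun, Junb, Atf3 and Ier3) against 37.4%, with a pair of copies in Ier3. The full TGACGTCA, the AP-1 site TGANTCA, the CArG box and the E-box CACGTG were in 0 of the 7 windows, against 1.79%, 7.81%, 1.63% and 7.15% of all windows. The EGR motif GCGNGGGCG was in the Fosb window and in 5.55% of all. TGACG is contained in TGACGTCA, and both strands were searched. Member windows were 54.0% to 80.7% G and C, where the median window had 52.7%. A match describes letters only, and sequence outside the windows was not searched.

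Levels below are log2 normalized intensities per array, and each difference is a difference of such group means with its standard error (SE). A probe is called where the limma test, adjusted by Benjamini-Hochberg over all 14763 probes, gives p under 0.05. Levels of different genes are not compared, since each rests on its own probe. Each called member rests on 1 probe.

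**Figure D1:**
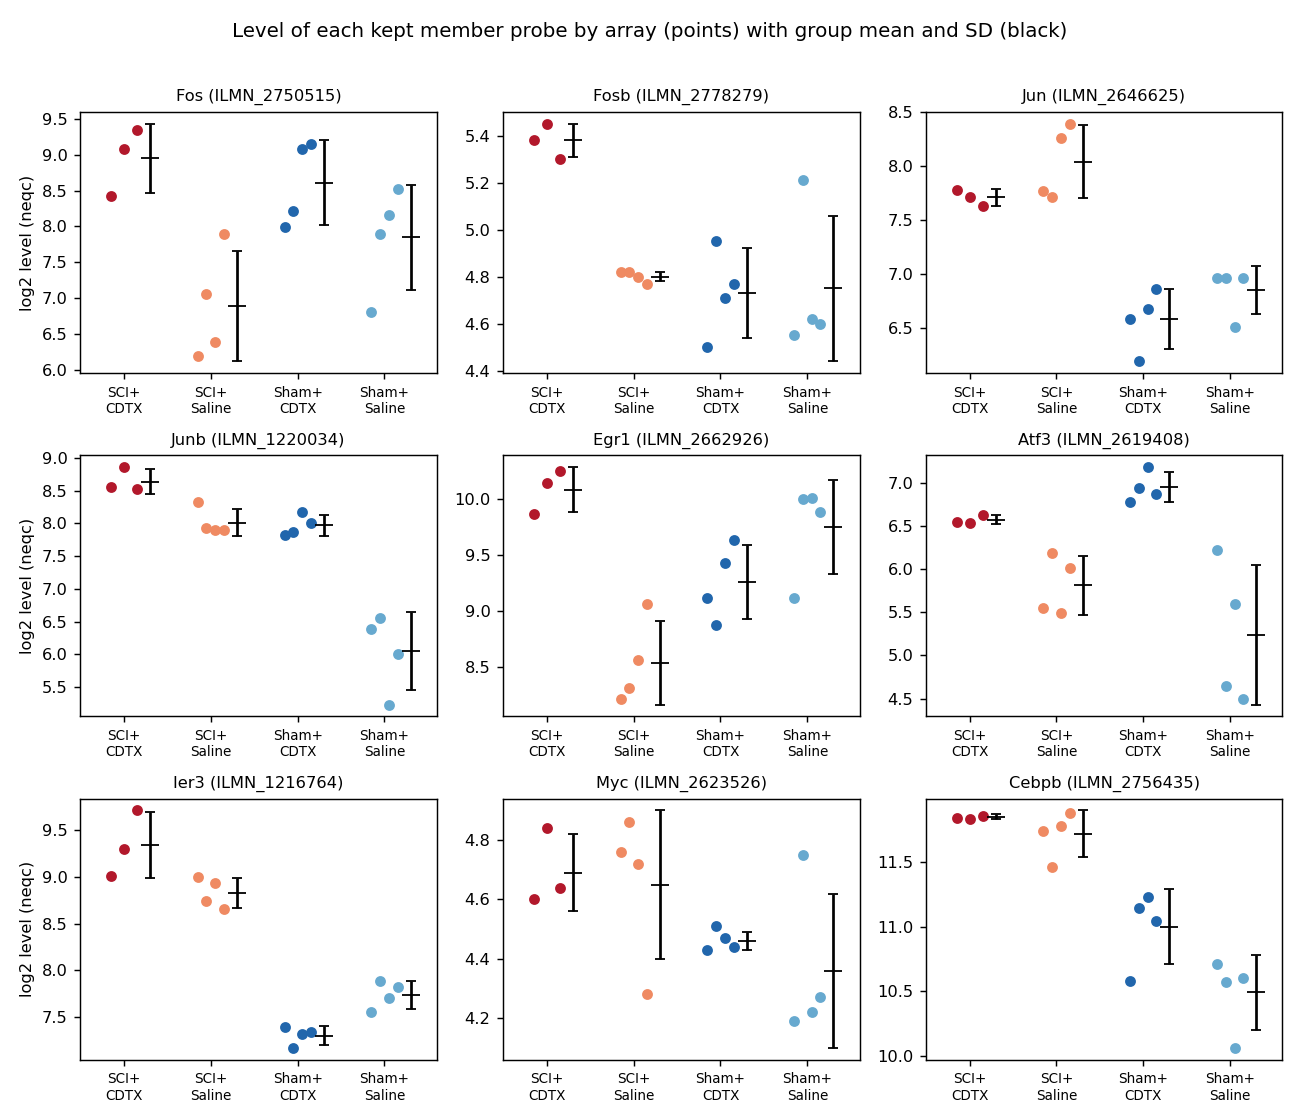
Log2 level of the 9 kept member probes on the 15 arrays. Each panel is a probe, each point an array, and the black bar the group mean with its SD (n = 3 for SCI+CDTX, 4 for the other groups). The Fos points of SCI+CDTX (8.43 to 9.35) lie above all SCI+Saline points (6.20 to 7.90), and the Junb points of Sham+Saline (5.23 to 6.56) lie below every other array. Vertical axes differ between panels and do not start at 0.

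Fos, the AP-1 subunit most often used as a marker of recent stimulation, was highest in SCI+CDTX and lowest in SCI+Saline. Its probe (ILMN_2750515, chromosome 12, band 12qD2) was detected on all 16 arrays. The SCI+CDTX arrays read 8.43, 9.08 and 9.35, and the SCI+Saline arrays 6.20, 7.06, 6.39 and 7.90. Sham+CDTX arrays read 7.99, 8.21, 9.08 and 9.15, and Sham+Saline arrays 6.81, 7.90, 8.16 and 8.52. After cord injury the toxin and saline groups did not overlap, whereas each neighbouring pair in the order SCI+CDTX, Sham+CDTX, Sham+Saline, SCI+Saline did overlap. With cord injury, Fos rose by 2.07 ± 0.41 (SE) with CDTX, a 4.19-fold difference (limma adjusted p = 0.000497). With sham surgery the difference was 0.76 ± 0.38 and was not called (adjusted p = 0.107). Its residual spread of 0.67 exceeded that of 99.3% of all kept probes, so these intervals are wide.

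Fosb, the second FOS family member, was dim and stood apart in SCI+CDTX. Its probe (ILMN_2778279, chromosome 7, band 7qA3) was detected on 12 of 16 arrays, among them 1 of 4 Sham+Saline arrays. SCI+CDTX read 5.38, 5.45 and 5.30, above each of the other 12 arrays. SCI+Saline read 4.77 to 4.82, Sham+CDTX 4.50 to 4.95 and Sham+Saline 4.55 to 5.21. Fosb was higher in SCI+CDTX than in SCI+Saline by 0.57 ± 0.16 (limma adjusted p = 0.00783) and than in Sham+CDTX by 0.64 ± 0.16 (adjusted p = 0.00538). Against Sham+Saline it was 0.63 ± 0.16 higher (adjusted p = 0.0034). The log2 offset understates differences this close to background.

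**Figure D2:**
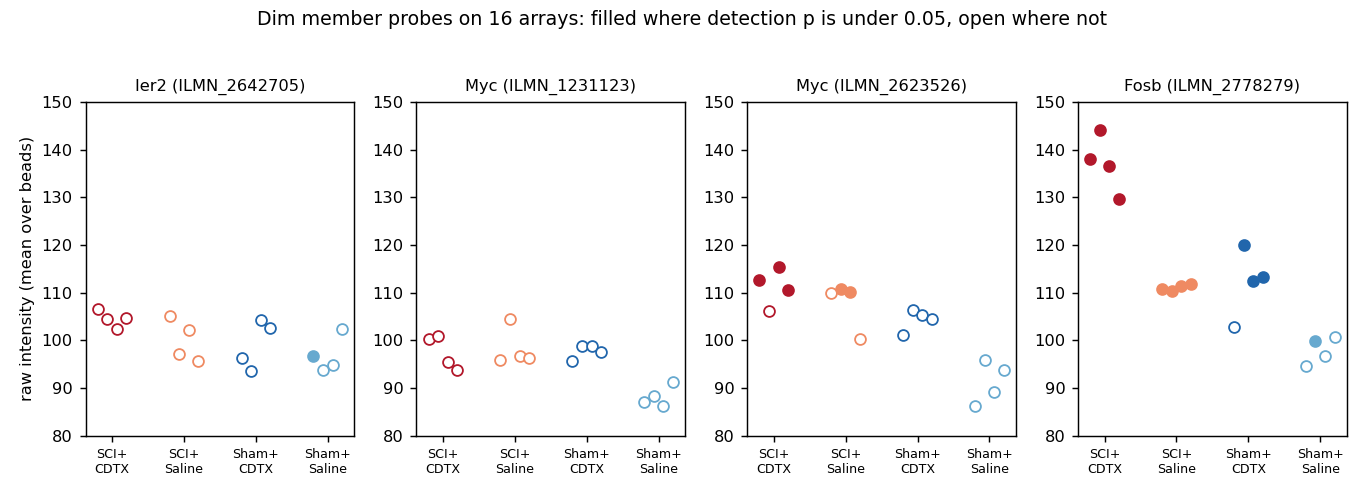
Raw intensity (mean over beads, before any correction) of the 4 dim member probes on all 16 arrays, by group. Filled points have a detection p under 0.05 and open points do not. Ier2 is filled on 1 array and Myc ILMN_1231123 on none, while Fosb is filled on all 8 SCI arrays. The vertical axis does not start at 0.

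Jun, the principal partner of FOS in AP-1, was higher after cord injury. Its probe (ILMN_2646625, chromosome 4, band 4qC5) was detected on all 16 arrays. SCI+CDTX arrays read 7.78, 7.71 and 7.63, and SCI+Saline arrays 7.77, 7.71, 8.26 and 8.39. Sham+CDTX arrays read 6.58, 6.19, 6.67 and 6.86, and Sham+Saline arrays 6.96, 6.96, 6.51 and 6.96. Every SCI array in the fit was above every sham array. Jun was higher after SCI by 1.13 ± 0.19 with CDTX (2.19-fold; limma adjusted p = 0.000204) and by 1.19 ± 0.18 with saline (2.28-fold; adjusted p = 5.92e-05). With a covariate for differences between probes of the same gene, fitted with SCI+CDTX 2 included, the value in CDTX muscle was 0.1, not called. For CDTX the differences were -0.33 (95% interval -0.73 to 0.07) after SCI and -0.27 (-0.65 to 0.10) after sham surgery, neither called. The left-out array SCI+CDTX 2 read 6.96 when all 16 arrays were normalized together, below the 7.67 to 7.82 of the other SCI+CDTX arrays and inside the sham range.

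Junb, a JUN family member that often restrains JUN activity, was low in Sham+Saline muscle and high in the other 3 groups. Its probe (ILMN_1220034, chromosome 8, band 8qC3) read 6.39, 6.56, 5.23 and 6.0 in Sham+Saline. Sham+CDTX read 7.83, 7.87, 8.18 and 8.01, and SCI+Saline 8.33, 7.93, 7.90 and 7.90. SCI+CDTX was highest at 8.55, 8.86 and 8.52, with no overlap with any other group. Alone, the toxin went with a rise of 1.93 ± 0.22 (3.8-fold; limma adjusted p = 8.8e-07) and cord injury with a rise of 1.97 ± 0.22 (3.91-fold; adjusted p = 2.16e-06). Both together gave 2.6 ± 0.23 (6.05-fold; adjusted p = 8.81e-08). On the log2 scale this is less than the sum of the separate rises, as the interaction of -1.30 ± 0.32 measures (adjusted p = 0.00641). Whether the rises add on the scale of intensity was not tested.

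Egr1, a zinc finger factor of the same early wave, fell with cord injury in saline-injected muscle and not in toxin-injected muscle. Its probe (ILMN_2662926, chromosome 18, band 18qB1) was detected on all 16 arrays. SCI+Saline arrays read 8.22, 8.32, 8.57 and 9.06, and Sham+Saline arrays 9.12, 10.00, 10.01 and 9.88, without overlap. SCI+CDTX arrays read 9.86, 10.14 and 10.25, and Sham+CDTX arrays 9.12, 8.88, 9.43 and 9.63, again without overlap on the arrays of the fit. With all 16 arrays normalized together, the left-out SCI+CDTX 2 read 9.62, inside the Sham+CDTX range of 8.91 to 9.66. With saline, Egr1 was lower on the SCI arrays by 1.21 ± 0.22 on the log2 scale, a 2.31-fold difference (limma adjusted p = 0.000393). SCI and slide cannot be told apart here. With CDTX the SCI arrays were instead 0.82 ± 0.24 higher (1.77-fold; adjusted p = 0.013). That difference was 0.29, not called, with the covariate for differences between probes of the same gene, SCI+CDTX 2 included. Read along the other axis, CDTX went with a rise of 1.54 ± 0.24 after SCI (2.91-fold; adjusted p = 5.09e-05) and a difference of -0.49 ± 0.22 after sham surgery, which was not called (adjusted p = 0.0741). The interaction was 2.03 ± 0.32 (adjusted p = 0.00022).

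Fos and Egr1 also moved together from array to array. Over the 15 arrays their levels had Pearson r = 0.79 and Spearman rho = 0.73, and after subtracting each group's mean r was 0.86. The arrays share slide, tissue and group structure, so this describes these libraries. In SCI+CDTX, SCI+Saline and Sham+CDTX the array with the highest Fos also had the highest Egr1, while in Sham+Saline it did not (9.88 against a highest of 10.01). No other pair of members had a within-group r above 0.69, the value for Fosb and Myc, both near background. Junb and Cebpb had 0.63, while Fos and Junb had -0.25.

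**Figure D3:**
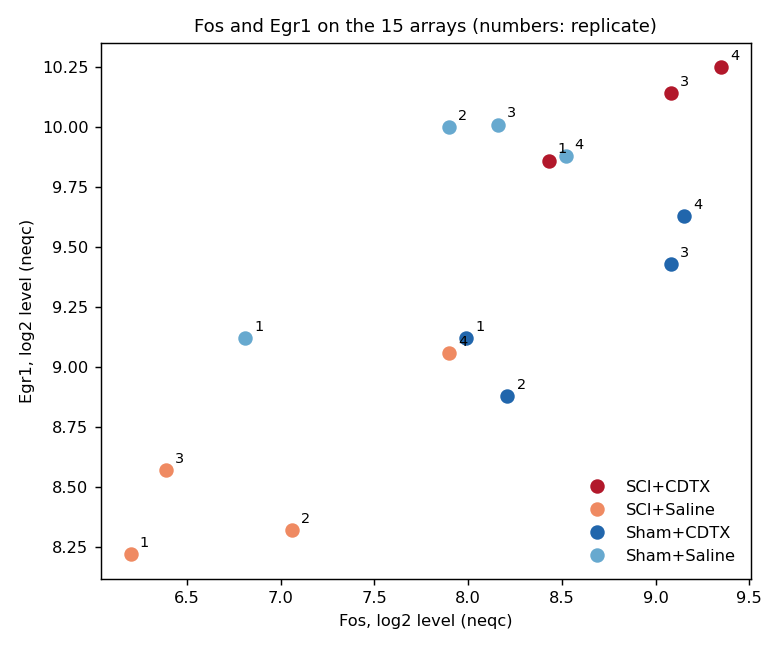
Log2 level of Egr1 (vertical) against Fos (horizontal) on the 15 arrays, coloured by group and numbered by replicate. The SCI+Saline arrays lie at the lower left (Fos 6.20 to 7.90, Egr1 8.22 to 9.06) and the SCI+CDTX arrays at the upper right (Fos 8.43 to 9.35, Egr1 9.86 to 10.25).

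Atf3, a stress-induced repressor and activator of the ATF family, followed the toxin. Its probe (ILMN_2619408, chromosome 1, band 1qH6) was detected on 14 of 16 arrays, the exceptions being Sham+Saline 2 and 4. Sham+CDTX arrays read 6.78, 6.94, 7.18 and 6.87 and SCI+CDTX arrays 6.55, 6.53 and 6.63. SCI+Saline arrays read 5.55, 6.18, 5.49 and 6.01 and Sham+Saline arrays 6.22, 4.65, 5.59 and 4.49. All 7 CDTX arrays in the fit were above all 8 saline arrays. After sham surgery Atf3 rose by 1.71 ± 0.28 with CDTX (3.27-fold; limma adjusted p = 4.89e-05), and after SCI by 0.76 ± 0.30 (1.70-fold; adjusted p = 0.0464). The interaction of -0.94 ± 0.41 was not called (adjusted p = 0.103), so the rises are not shown to differ. SCI with saline gave 0.57 ± 0.28, not called (adjusted p = 0.135).

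Ier3, an early gene that tunes NF-kB and survival signalling, had the clearest separation by surgery. Its probe (ILMN_1216764, chromosome 17, band 17qB1) was detected on all 16 arrays. SCI+CDTX arrays read 9.01, 9.30 and 9.71, and SCI+Saline arrays 9.0, 8.74, 8.93 and 8.66. Sham+CDTX arrays read 7.39, 7.17, 7.32 and 7.34, and Sham+Saline arrays 7.55, 7.89, 7.70 and 7.82. No pair of groups overlapped on the arrays of the fit, though the lowest SCI+CDTX array (9.01) lay just above the highest SCI+Saline array (9.0). With all 16 arrays normalized together, the left-out SCI+CDTX 2 read 8.54, below every SCI+Saline array (8.70 to 9.03). SCI went with a rise of 2.03 ± 0.16 in CDTX muscle (4.10-fold; limma adjusted p = 1.26e-07), which ranked 97th by size among the 14763 probes of that comparison, and of 1.10 ± 0.15 in saline muscle (2.14-fold; adjusted p = 2.4e-05). CDTX went with a rise of 0.50 ± 0.16 after SCI (adjusted p = 0.0173) and a fall of 0.43 on the log2 scale after sham surgery (SE 0.15; adjusted p = 0.0224). The interaction was 0.94 ± 0.22 (adjusted p = 0.00465), and was not called with SCI+CDTX 2 included (0.73).

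Cebpb, a leucine zipper factor of inflammation and of muscle precursor and macrophage programmes, was bright on every array and higher after cord injury. Its probe (ILMN_2756435, band 2qH3) was detected on all 16 arrays. SCI+CDTX read 11.84, 11.83 and 11.86, and SCI+Saline 11.74, 11.46, 11.78 and 11.88. Sham+CDTX read 10.58, 11.14, 11.23 and 11.04, and Sham+Saline 10.71, 10.57, 10.06 and 10.60. SCI arrays all lay above sham arrays. Cebpb was higher after SCI by 1.23 ± 0.17 with saline (2.34-fold; limma adjusted p = 2.08e-05) and by 0.85 ± 0.18 with CDTX (1.80-fold; adjusted p = 0.00149). CDTX went with 0.51 ± 0.17 after sham surgery (1.42-fold; adjusted p = 0.0161), although those groups overlapped. After SCI the CDTX difference was 0.13 (95% interval -0.25 to 0.51), not called.

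Myc and Ier2 were at background. Myc ILMN_2623526 (chromosome 15, band 15qD1) was detected on 5 of 16 arrays, 3 of SCI+CDTX and 2 of SCI+Saline, at raw intensities of 86.2 to 115.4 over all arrays, and on none of the 8 sham arrays. It therefore passed the detection filter through SCI arrays alone, and nothing is read from its SCI differences. It still counts among the members in the shares and medians below. Its level was 4.69 ± 0.13 (SD, n = 3) in SCI+CDTX and 4.65 ± 0.25 (n = 4) in SCI+Saline, and it was called in none of the 5 comparisons. The smallest of its adjusted p-values was 0.102 (limma, SCI+CDTX against Sham+Saline, difference 0.34). The second Myc probe, ILMN_1231123, was detected on 0 of 16 arrays (raw 86.2 to 104.5). Ier2 ILMN_2642705 (chromosome 8, band 8qC3) was detected on Sham+Saline 1 and no other array (raw 93.5 to 106.5). The Ier2 probe is listed as starting at base 3128 of its transcript, while RefSeq gives the gene a span of 1522 bases. Neither gene was detectable here beyond this, which is a bound of the probes and not an absence of RNA.

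After cord injury, the toxin went with more early gene RNA: Fos, Fosb, Junb, Egr1, Atf3 and Ier3 rose, and Jun, Myc and Cebpb were not called. That is 6 of 9 called, where 42.9% of all probes were called in the same comparison with 20.4% higher and 22.5% lower. The largest were Fos (2.07) and Egr1 (1.54), the only members past a log2 difference of 1, as were 14.6% of all probes. The median member difference was 0.57, against -0.05 over all probes. In 6 of 9 the groups did not overlap, against 45.9% of probes. All 8 macrophage genes were higher in the same comparison (median 2.37), as were 6 of 8 fibroadipogenic progenitor genes (median 1.01), while 2 of 3 muscle precursor genes were lower (median -1). Of 7 neutrophil genes, 2 were higher and 0 lower (median 1.31). The part of these cell types in the result was not tested. The Junb call ended without any of SCI+CDTX 1, 3 or 4 or SCI+Saline 2, 3 or 4 (adjusted p 0.0549 to 0.15), and the Atf3 call without any of SCI+CDTX 1, 3 or 4, SCI+Saline 1 or 3 or Sham+CDTX 1, 2 or 4 (0.0515 to 0.116). The Ier3 call ended without SCI+CDTX 4 (difference 0.32, adjusted p = 0.146) and with SCI+CDTX 2 included (0.30, adjusted p = 0.249), and without SCI+CDTX 4 the count was 3 of 9.

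After sham surgery, CDTX went with changes in 4 members: Junb (1.93), Atf3 (1.71) and Cebpb (0.51) rose, Ier3 fell (-0.43), and Fos, Fosb, Jun, Egr1 and Myc were not called. The 4 of 9 called compare with 48.9% of all probes (23.1% higher and 25.8% lower), a share near the background. Groups did not overlap for 3 of 9, against 45% of probes, and 2 of 9 were called past a log2 difference of 1, against 16.8%. The median member difference was 0.11 against -0.04 over all probes. Macrophage genes were again all higher (8 of 8, median 3.26), as were 7 of 8 fibroadipogenic progenitor genes (median 0.98) and 2 of 3 muscle precursor genes (median 1.11). Of 7 neutrophil genes, 2 were higher and 0 lower (median 0.19). The part of these cell types was not tested. Median scaling in place of quantile normalization puts the median of all probes at 0.32 and 85.1% of calls higher (47.3% with quantile). Under it 5 members were higher and 0 lower, when 53.4% of all probes were called. Fos was then called at 1.46 (adjusted p = 0.00612), Jun turned to 0.56 (adjusted p = 0.0237) and Ier3 to 0.36 (adjusted p = 0.0631). The Ier3 call also ended without Sham+CDTX 2, Sham+Saline 2 or Sham+Saline 4 (adjusted p 0.0511 to 0.0647), and the Cebpb call without Sham+CDTX 3 or Sham+Saline 3 (0.0586 and 0.0682). Without Sham+Saline 4, the array with high neutrophil genes, Fos was called at 0.98 (adjusted p = 0.0454), and Egr1 was called lower without SCI+Saline 4, Sham+CDTX 4 or Sham+Saline 1 (-0.49 to -0.70).

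Every Sham+CDTX array also stood apart in a measure that uses no member. For genes with 2 probes in the table, the difference between the probes was taken on each array. The first component of these differences over 2782 genes (33.1% of their variance) was 0.35 to 0.39 on Sham+CDTX arrays. It was -0.27 to -0.08 on SCI+Saline, -0.26 to -0.16 on Sham+Saline and -0.12 to 0.28 on SCI+CDTX, where 0.28 is SCI+CDTX 2. With this score as a covariate over 16 arrays, Junb alone was called after sham surgery (1 of 9, when 20.7% of all probes were called). Ier3 alone was called in SCI+CDTX against Sham+CDTX (1 of 9, when 1.75% of all probes were called). This fit includes SCI+CDTX 2, whose score of 0.28 stands against -0.12 to -0.07 on the other SCI+CDTX arrays. Within groups the score varies most through that array, so the values with the score lean on it. After sham surgery Atf3 was 1.57 and Cebpb 0.72 with the score, not called, and Ier3 turned to 0.73. In SCI+CDTX against Sham+CDTX, Junb (0.67), Cebpb (0.7) and Fosb (0.6) were not called at nearly the same size, whereas Jun went from 1.13 to 0.1 and Egr1 from 0.82 to 0.29. The score nearly coincides with the Sham+CDTX group, so score and group cannot be told apart there.

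In toxin-injected muscle, cord injury went with higher levels of 6 members: Ier3 (2.03), Jun (1.13), Cebpb (0.85), Egr1 (0.82), Junb (0.67) and Fosb (0.64). Fos (0.35), Atf3 (-0.38) and Myc (0.23) were not called. The 6 of 9 compare with 29.8% of all probes called and 14.9% called higher. In 8 of 9 the groups did not overlap, against 42.6% of probes. These include Atf3, which was lower, and Myc, which passed the detection filter through SCI arrays alone. The median member difference, Myc included, was 0.67, and 0.01 over all probes. Ier3 and Jun passed a log2 difference of 1, as did 8.55% of probes. With only SCI+CDTX and Sham+CDTX in the fit, Atf3 was called lower (-0.38, adjusted p = 0.0341). Macrophage genes were split here (2 of 8 higher, 2 lower, median -0.11), 3 of 8 fibroadipogenic progenitor genes were lower (median -0.47), and 2 of 3 muscle precursor genes were higher (median 0.92). Of 7 neutrophil genes, 0 were higher and 0 lower (median 0.39). The part of these cell types was not tested. The Junb call ended without any of SCI+CDTX 1, 3 or 4 or Sham+CDTX 1, 2 or 4 (adjusted p 0.0607 to 0.15), and the Egr1 call without SCI+CDTX 4 (0.74, adjusted p = 0.0641).

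In saline-injected muscle, cord injury went with higher Junb (1.97), Cebpb (1.23), Jun (1.19) and Ier3 (1.10) and lower Egr1 (-1.21). These 5 of 9 compare with 29.5% of all probes, and all 5 exceeded a log2 difference of 1, which 7.06% of probes did while called. Groups did not overlap for 5 of 9, against 23.5% of probes. The median absolute difference was 1.10 for members and 0.28 for all probes. Fos was lower by 0.96 on the log2 scale in mean (95% interval -1.75 to -0.17) and was not called (limma adjusted p = 0.0637). Without SCI+Saline 4, the SCI array with high neutrophil genes, it was called at -1.29 (adjusted p = 0.00952), and without Sham+Saline 1 at -1.31 (adjusted p = 0.0118). Atf3 was called without Sham+Saline 1 (0.91, adjusted p = 0.00704). Muscle precursor genes were all higher (3 of 3, median 2.62), 3 of 8 macrophage genes were higher (median 0.6), 4 of 6 endothelial genes were lower (median -0.59) and 3 of 8 fibroadipogenic progenitor genes were lower (median -0.25). Of 7 neutrophil genes, 1 was higher and 0 lower (median 0.16). The part of these cell types was not tested.

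**Figure D4:**
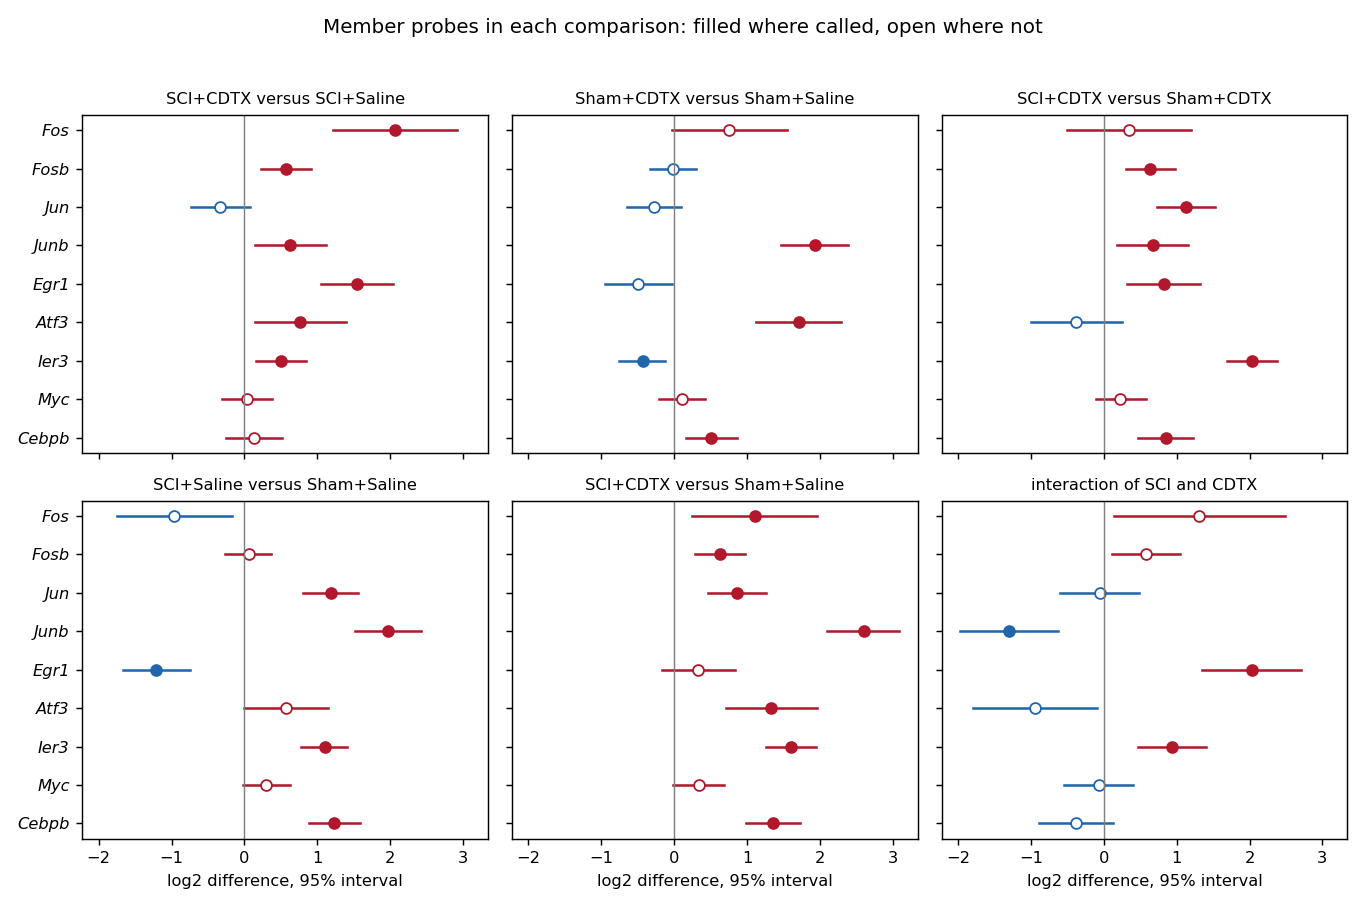
Log2 difference of each member probe with its 95% interval in the 5 comparisons and the interaction, filled where called and open where not, red above 0 and blue below. Ier3 (2.03) is farthest to the right for SCI+CDTX against Sham+CDTX and Junb (2.60) for SCI+CDTX against Sham+Saline, while Egr1 lies left of 0 for SCI+Saline against Sham+Saline (-1.21).

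Set against Sham+Saline, muscle with both injuries had 7 of 9 members higher, against 46.5% of all probes called and 23.0% called higher. These were Junb (2.60), Ier3 (1.60), Cebpb (1.36), Atf3 (1.33), Fos (1.11), Jun (0.86) and Fosb (0.63), with a median over the members of 1.11 and of -0.03 over all probes. Egr1 was within the spread (0.33, 95% interval -0.16 to 0.83), since its high level in SCI+CDTX was matched by Sham+Saline. In 6 of 9 the groups did not overlap, against 48.8% of probes, and 5 of 9 were called past a log2 difference of 1, against 18.9%. Macrophage genes (8 of 8, median 3.43), muscle precursor genes (3 of 3, median 2.17) and 4 of 7 neutrophil genes (median 1.18) were higher. Of the fibroadipogenic progenitor genes 3 of 8 were higher (median 0.46), and 4 of 6 endothelial genes were lower (median -0.54). The part of these cell types was not tested. The Fos call ended without SCI+CDTX 3 or 4 or Sham+Saline 1 or 2 (adjusted p 0.0509 to 0.136). Under median scaling Egr1 was called too (0.78, adjusted p = 0.0196). The comparisons against SCI+CDTX share those arrays, as do the others their common groups.

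The interaction asks whether the CDTX difference after SCI differs from that after sham surgery. It was called for Egr1 (2.03), Ier3 (0.94) and Junb (-1.30), 3 of 9 where 23.6% of all probes were called. Egr1 and Ier3 rose with the toxin after SCI (1.54 and 0.5), whereas after sham surgery Ier3 fell (-0.43) and Egr1 was -0.49, not called. Junb rose with the toxin in both settings, and less after SCI on the log2 scale. Fos had the second largest positive value (1.31 ± 0.56) and was not called (limma adjusted p = 0.0973), nor was Fosb (0.58, adjusted p = 0.0618). Without Sham+Saline 1 the count was 6, with Fos (1.65), Fosb (0.66) and Atf3 (-1.29) called as well, and Fos was called without SCI+Saline 4 too (1.64), as was Fosb without Sham+CDTX 2 (0.64). Under median scaling 2 members were higher and 3 lower (32.1% of all probes called), and 17.7% of all calls were higher where quantile normalization gave 51.0%. The Ier3 value then was 0.20 (limma adjusted p = 0.558). The Ier3 call also ended with SCI+CDTX 2 included (0.73, adjusted p = 0.0898). With the probe difference score 0 of 9 members were called, when 0.288% of all probes were called.

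The authors' deposited table gives group means after average normalization and background subtraction, with a difference p against SCI+CDTX whose correction is not settled. In the authors' deposited table that p was under 0.05 for 5 of 9 members in the SCI+Saline comparison (32.7% of the same probes), 6 in the Sham+CDTX comparison (28.4%) and 7 in the Sham+Saline comparison (42.4%). By the authors' deposited table, Fos had means of 542.4 in SCI+CDTX and 101.5 in SCI+Saline (p = 0.00021). Ier3 had 689.3 in SCI+CDTX and 165.4 in Sham+CDTX in the authors' deposited table (listed p = 0), and its p against SCI+Saline was 0.0585.

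Genes of the same pathways were counted from lists of AP-1 partners, other immediate early genes, feedback regulators, CEBP and integrated stress response genes, and MYC partners and targets. Among 18 other immediate early genes measured, 7 rose and 2 fell with CDTX after SCI (50%, against 42.9% of all probes), and 5 rose and 3 fell with CDTX after sham surgery (44.4%, against 48.9%). Both shares lie near those of all probes. Egr2, the EGR family member of Schwann and immune cells, was 7.5 ± 0.1 (SD, n = 3) in SCI+CDTX and 5.98 to 6.28 in mean elsewhere. Plk3, a stress kinase, behaved alike at 7.83 ± 0.40 in SCI+CDTX against means of 5.27 to 5.53. Both were called against each other group (Egr2 1.53, 1.22 and 1.45; Plk3 2.56, 2.30 and 2.30), and both interactions were called (1.30 and 2.56). With the probe difference score, the values against Sham+CDTX were 0.19 for Egr2 and -0.12 for Plk3 and the interactions 0.15 and -0.11, none called, while both stayed called against SCI+Saline and Sham+Saline.

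Rrad, a small GTPase of muscle, followed cord injury: it was 10.30 ± 0.61 in SCI+Saline, 8.61 ± 0.45 in SCI+CDTX, 6.94 ± 0.25 in Sham+CDTX and 5.43 ± 0.61 in Sham+Saline. It was higher after SCI by 4.86 with saline and by 1.67 with CDTX, and the interaction was -3.19 (all called). Plk2 rose with SCI in both settings (1.14 with CDTX and 1.48 with saline). Srf, the serum response factor that drives Fos and Egr1 in many cells, was 9.25 ± 0.18 in Sham+Saline and 7.72 to 8.23 in mean elsewhere. It fell with SCI in saline muscle (-1.53) and with CDTX in sham muscle (-1.02), the latter being -0.37 and not called under median scaling and turning to 0.02 with the probe difference score.

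Feedback regulators shut early signals off, and 7 of 13 measured rose and 0 fell with CDTX after SCI (53.8%, against 42.9% of all probes). After sham surgery 7 rose and 1 fell with CDTX (61.5%, against 48.9% of all probes), so the rise was not particular to cord-injured muscle. Under the probe difference score 7 were higher and 1 lower after SCI (40.9% of all probes called). After sham surgery 2 were then higher and 1 lower (20.7%). Dusp1 encodes a phosphatase that inactivates MAP kinases, and its means were 10.74 ± 0.48 in Sham+Saline and 10.33 ± 0.26 in SCI+CDTX, against 9.52 ± 0.59 in Sham+CDTX and 9.02 ± 0.53 in SCI+Saline. It fell with SCI in saline muscle (-1.72) and with CDTX in sham muscle (-1.21), and rose with CDTX after SCI (1.31), with an interaction of 2.53. Socs3, which restrains cytokine signalling through JAK and STAT, was 8.66 ± 0.49 in SCI+CDTX and 6.75 to 7.19 in mean elsewhere. Zfp36, which destabilises early messenger RNAs, rose with CDTX in both settings (2.06 after SCI and 1.15 after sham surgery). Dusp10 was lower after SCI (-2.82 with CDTX and -1.62 with saline). With the probe difference score the following lost their calls: Dusp1 after sham surgery (-0.24) and in the interaction (1.64), and, in SCI+CDTX against Sham+CDTX, Socs3 (0.62) and Dusp10 (-0.86).

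Among 16 CEBP and integrated stress response genes, SCI went with 7 higher and 0 lower in CDTX muscle (43.8%, against 29.8% of all probes). In saline muscle 6 were higher and 2 lower (50%, against 29.5%). Gadd45a, a growth arrest gene known from denervated muscle, was 12.21 ± 0.34 in SCI+Saline, 11.42 ± 0.53 in SCI+CDTX, and 9.52 ± 0.13 and 9.57 ± 0.14 in the sham groups. Ddit4, an inhibitor of mTORC1, rose with SCI by 1.29 with CDTX and 1.34 with saline. Atf4, the central factor of the integrated stress response, rose with SCI (0.70 and 0.64) and fell with CDTX (-0.56 and -0.62). After sham surgery the Atf4 fall was not called under median scaling (-0.27) or with the probe difference score (-0.14). With that score the SCI differences in CDTX muscle of Atf4 (0.36) and Ddit4 (0.9) were not called. In that comparison 2 of these 16 genes were higher, when 1.75% of all probes were called.

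Of 13 AP-1 partners measured, SCI in saline muscle went with 1 higher and 1 lower (15.4%, against 29.5% of all probes). CDTX went with 3 higher and 1 lower after SCI (30.8%, against 42.9% of all probes), and 4 higher and 1 lower after sham surgery (38.5%, against 48.9%), Jdp2 (a repressor of AP-1) rising in both (0.73 and 1.29). Jund read 6.12 ± 0.15 in Sham+CDTX and 4.50 to 4.79 in mean elsewhere, a group difference that turned from 1.34 to -0.58 with the probe difference score. Of 15 MYC partners and targets, 8 were higher and 1 lower with SCI in saline muscle (60.0%, against 29.5% of all probes). With CDTX after sham surgery 7 were higher and 1 lower (53.3%, against 48.9% of all probes). These became 9 and 0 under median scaling (53.4% of all probes called) and 4 and 1 with the probe difference score (20.7%). Srm and Odc1, both of polyamine synthesis, rose with SCI in saline muscle by 1.32 and 1.74. Nop58 was 9.26 ± 0.53 in Sham+CDTX and its CDTX difference after sham surgery went from 2.32 to -1.30 with that score, which was not called.

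**Figure D5:**
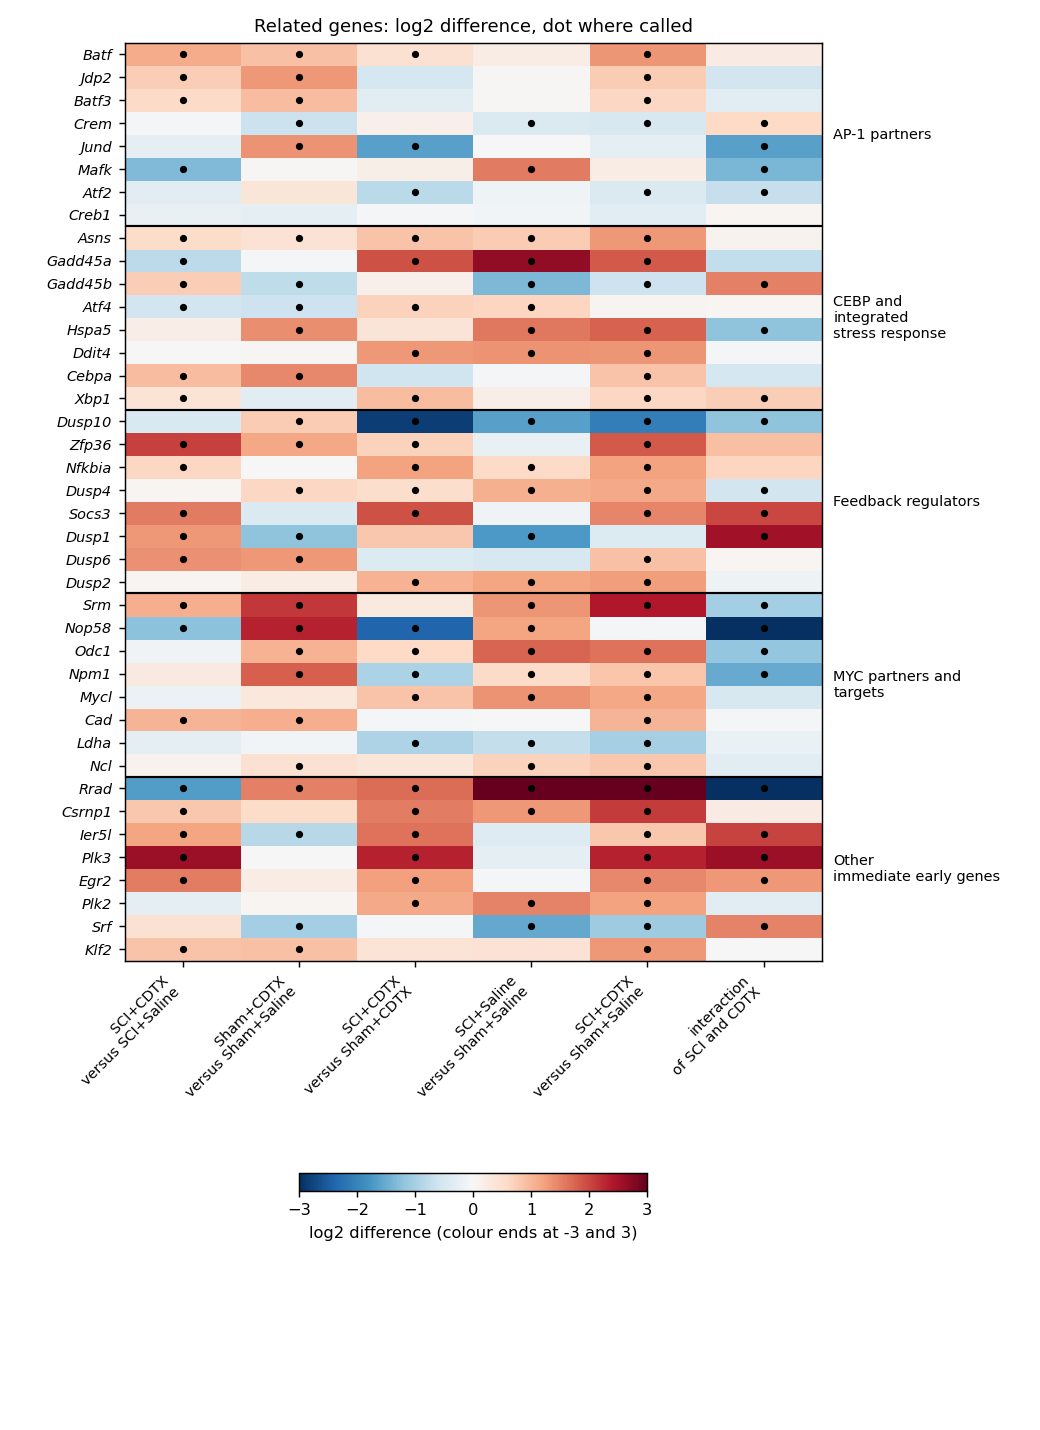
Log2 difference of the 40 related genes called most often, in rows grouped by list, across the 5 comparisons and the interaction in columns. Red is higher and blue lower in the group named first, dots mark calls, and colours end at -3 and 3. Rrad is deep red for SCI+Saline against Sham+Saline (4.86), and Dusp1 is blue there (-1.72) and red for SCI+CDTX against SCI+Saline (1.31).

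By Pearson correlation of level over the 15 arrays, a description that follows the group structure, the genes most like each member were as follows. Fos was most like Usp18 (r = 0.917), Pigl (0.915) and Pes1 (0.914). Egr1 was closest to Rfc2 (0.939), Drctnnb1a (0.930) and Kmt5c (0.888). Atf3 was most like Pld3 (0.940), Lamp2 (0.927) and Itga5 (0.926), and Junb like Vars (0.971), Rpl10-ps1 (0.963) and Tubb2b (0.957). Jun was closest to Tmem100 (0.942), Psmd8 (0.935) and Gprc5b (0.933). For Ier3 the nearest were Isy1 (0.96), Derl2 (0.951) and Psmd13 (0.95), whose r within groups dropped to 0.305, 0.103 and 0.214. Cebpb was nearest to Serpinb6a (0.948), Mvp (0.935) and 9530068E07Rik (0.935). Fosb was most like Izumo4 (0.885), Ccl21a (0.860) and Cd209b (0.855), and Myc like 2700062C07Rik (0.896), Ercc3 (0.877) and Stoml1 (0.867), both from dim probes.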

How the data were processed

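Mouse muscle RNA was measured on 16 Illumina arrays, and groups come from the labels. The non-normalized table deposited by the authors holds, for every probe on each array, its raw intensity, its detection p-value and its bead count, from GenomeStudio 2011.1 per the submitters' processing notes and gene expression module 1.9.0 per the file headers. The authors' deposited final table holds mean intensity per group after average normalization and background subtraction, with a difference p-value. Per-sample columns left unused numbered 0.

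Intensities of 15 arrays were corrected with neqc (limma 3.58.1, R 4.3.3, with the data.table package, version 1.17.8; offset 16) and quantile normalized, and the 14763 probes (10952 genes) detected at p under 0.05 on 3 or more arrays were tested. All adjusted p-values come from 1 limma model of the 4 group means with eBayes, adjusted by Benjamini-Hochberg over all kept probes, and were called under 0.05. Simulated data with log2 changes of 1 and 2 planted were used to test the fit. The members, lists and alternatives were chosen with earlier results of these data known. Every member probe was named. Of each related list the 8 genes called most often were drawn and examples taken from them. Array symbols were updated through RefSeq by Entrez ID. The build of the array's annotation is not given in the sources used here, so probes have a chromosome and band only. Alternatives covered arrays, background correction, scaling, filters, variance model, replicate block, probe difference score, slide and each array left out.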

Additional observations from a re-analysis of the deposited data

Results flagged for a closer look

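Within groups of 4 arrays, 5 member levels lay far from the other 3 by Dixon's test, which flags about 1 group in 20 by chance. Sham+Saline 2 was high for Fosb (5.21) and for Myc (4.75), both dim probes. Sham+Saline 3 was low for Jun (6.51), where the other arrays of the group read 6.96. SCI+Saline 1 was high for Junb (8.33), and Sham+Saline 1 was low for Egr1 (9.12). The interaction was called for Junb (-1.30), Egr1 (2.03) and Ier3 (0.94), 3 of 9 where 23.6% of all probes were called. With the probe difference score none of these was called, when 0.288% of all probes were called. The Ier3 call also ended under median scaling (0.20) and with SCI+CDTX 2 included (0.73).

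Array SCI+CDTX 2 was outside the tests, and its levels were read from a joint normalization of all 16 arrays. It stood above every Sham+Saline array for Fos (8.97), Fosb (5.39), Junb (8.82), Atf3 (6.52), Ier3 (8.54) and Cebpb (11.84). For Fos, Fosb and Junb it lay within the range of the other SCI+CDTX arrays. It lay below that range for Jun (6.96), Egr1 (9.62), Ier3 and Myc (4.33), and by 0.05 or less for Atf3 and Cebpb.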

How the results depend on the processing

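Of 31 calls on members, 16 held in every alternative that was run, and 434 of 465 checks with 1 array left out kept the call. Leaving out each array in turn, the count of members called ranged from 3 to 6 for SCI+CDTX against SCI+Saline, 3 to 5 for Sham+CDTX against Sham+Saline, 4 to 6 for SCI+CDTX against Sham+CDTX, 5 to 7 for SCI+Saline against Sham+Saline, 6 to 7 for SCI+CDTX against Sham+Saline and 3 to 6 for the interaction. The share of all probes called is not given beside these ranges, so a change in the members and one in all calls cannot be told apart. With the probe difference score as a covariate, SCI+CDTX 2 included, the count was 1 for Sham+CDTX against Sham+Saline (20.7% of all probes called). It was 1 for SCI+CDTX against Sham+CDTX (1.75%) and 0 for the interaction (limma, 0.288%). Ier3 reversed to 0.73 in Sham+CDTX against Sham+Saline and to -0.11 in the interaction, neither called, and the cause was not tested. Median scaling gave 5 for the interaction (32.1% of all probes called). It reversed Jun (0.56, called) and Ier3 (0.36) in Sham+CDTX against Sham+Saline, where the median of all kept probes was 0.32. Median scaling also put 64.9%, 86.4% and 82.6% of all calls higher for SCI+CDTX against SCI+Saline, SCI+Saline against Sham+Saline and SCI+CDTX against Sham+Saline, where quantile normalization gave 47.6%, 50.3% and 49.4%. It placed the median of all probes at 0.17 and 0.32 in the last 2 of these and at -0.24 in the interaction. The alternatives for the related gene lists were chosen after seeing the data. Under median scaling the CEBP and integrated stress response list had 5 higher and 2 lower in Sham+CDTX against Sham+Saline (53.4% of all probes called). Quantile normalization gave 4 and 7 there (48.9%).

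With the replicate number as a block the interaction count was 5 (Fos and Fosb added), when 21.5% of all probes were called. Fos was then called for SCI+Saline against Sham+Saline (-0.96, limma adjusted p = 0.00367). In Sham+CDTX against Sham+Saline the block brought calls for Fos (0.76, adjusted p = 0.00902) and Egr1 (-0.49, adjusted p = 0.0265). In SCI+CDTX against Sham+Saline it brought one for Myc (0.41, adjusted p = 0.0475). Nothing is read from that call, since the Myc probe passed the detection filter through SCI arrays alone. The block ended the Atf3 call in SCI+CDTX against SCI+Saline (0.74, adjusted p = 0.0804). The numbers do not pair the arrays: over all probes 3 of 21 same-numbered pairs correlated above 0.1 (median -0.0229), and 12 of 63 with different numbers did. For Fos alone, the array numbered 4 was the highest and that numbered 1 the lowest in each of the 4 groups. Within each group the numbers follow the letters of the array labels, so number and position on the slide cannot be told apart. Without the detection filter 4 calls on members were lost. Dim probes (Fosb, Myc, Ier2) limit what can be read, since their signal is near background.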
